A study of Mus musculus with 9 samples.

Results

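Loss of the mitochondrial pyruvate carrier by gene deletion was set directly against its block by a drug, in organoids grown from basal cells of the mouse prostate. The comparison used 6 of the 9 RNA sequencing libraries of the series, 3 of Mpc1-KO and 3 of UK5099 organoids, chosen by the names of the libraries. All organoids derived from mice with floxed Mpc1 alleles (Mpc1 fl/fl) on a mixed C57BL/6N and C57BL/6J background. Mpc1-KO cells had received a lentivirus coding for Cre recombinase and red fluorescent protein (RFP), and their label names no drug. Per the study's methods infected cells grew for a week, were dissociated and sorted by RFP, which marks infection and not recombination. UK5099 organoids kept the floxed alleles and were given the carrier inhibitor UK5099 at 10 µM for 1 week, and the virus of this group is not stated in the labels. The remaining 3 libraries are the vehicle group, whose names carry the RFP virus without Cre, and they are quoted here as levels for reference, with no test. Of 52248 named genes in the table, 26021 had reads in any of the 6 libraries and 12364 had a mean of at least 1 CPM (read counts scaled to the same total in every library) over them. These 12364 genes were tested, and differences are given as Mpc1-KO minus UK5099 on the log2(CPM + 0.5) scale, so that a negative value means a higher level with the drug. The pseudocount of 0.5 CPM understates the differences of genes with low levels.

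The carrier is a complex of Mpc1 and Mpc2 in the inner mitochondrial membrane and takes pyruvate, the end product of glycolysis, into the matrix, where it feeds the tricarboxylic acid (TCA) cycle. UK5099 binds the carrier and blocks transport, while deletion of Mpc1 removes a subunit without which the complex does not form. In the prostate, basal cells carry keratins 5 and 14 and the transcription factor p63 and can give rise to luminal cells, which carry keratins 8 and 18 and secrete the components of prostatic fluid. The design joins Mpc1 deletion with Cre expression and the drug with whatever UK5099 does outside the carrier, and these cannot be told apart in this comparison.

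Depth was 16.5 to 26.3 M reads in the UK5099 libraries and 21.8 to 28.7 M reads in the Mpc1-KO libraries. UK5099 libraries differed more among themselves, with an SD per gene (log2 scale) of 0.181 in the median, against 0.061 in Mpc1-KO (and 0.087 in vehicle), and the SD was larger with UK5099 for 87.5% of genes. UK5099 library 1 stood apart. It lay more than 2-fold from the mean of the other UK5099 libraries for 433 genes, against 157 and 92 genes for libraries 2 and 3 and at most 6 for any Mpc1-KO library. The sources do not say whether the 3 libraries of a group came from separate cultures or animals, so p-values measure only the spread between these libraries. Epcam, the general epithelial adhesion molecule, was abundant in all 6 libraries (1518 to 3098 CPM, higher in Mpc1-KO by 0.91, limma adjusted p = 3.0e-04). Markers of other cell types were mixed. Some were low, such as Ptprc of leukocytes (at most 0.190 CPM) and Pecam1 of endothelium (at most 0.910 CPM). Others were not, such as the mesenchymal markers Fn1 (254 to 3536 CPM) and Vim (5.94 to 53.1 CPM) and the leukocyte marker Cd14 (24.4 to 54.1 CPM). An exact 0 in this table does not show absence, since 5 of 13 mitochondrially encoded genes, among them mt-Co2 and mt-Co3, were listed at 0 in all 9 libraries.

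The targeted gene followed the labels. Mpc1-KO libraries held 0.522, 0.533 and 0.598 CPM of Mpc1, which is 15, 12 and 13 reads, and UK5099 libraries held 2.04, 2.48 and 2.3 CPM. The groups did not overlap, and the difference was -1.40 ± 0.16 (SE, n = 3 libraries per group throughout) with a limma adjusted p of 7.5e-04. Mpc1 with UK5099 lay near the vehicle libraries (2.36, 2.41 and 2.38 CPM). Mpc2, the partner subunit, did not separate the groups, at 12.2, 11.4 and 13.1 CPM in Mpc1-KO and 16.8, 12.6 and 11.2 CPM with UK5099 (difference -0.12, adjusted p = 0.57, 95% interval -0.49 to 0.25). The sources do not state how reads shared by Mpc1 and its pseudogene were assigned, nor whether the remaining reads lie outside the deleted part.

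Across all genes, deletion and drug parted widely. By limma with Benjamini-Hochberg adjustment 4445 of 12364 genes (36.0%) passed at an adjusted p below 0.05, of which 2123 (17.2%) were higher in Mpc1-KO and 2322 (18.8%) higher with UK5099. The libraries of the groups did not overlap for 6791 genes (54.9%). The balance shifted towards the drug as the difference grew. Of the 841 genes (6.8%) that passed with more than 2-fold, 366 were higher in Mpc1-KO and 475 with UK5099, of 185 past 4-fold 38 and 147, and of 55 past 8-fold 1 and 54. For the genes that did not pass, the 95% interval says how far a difference could go. It lay within 1.5-fold either way for 5335 of them, within 2-fold for 7348, and reached past 2-fold for 571. Over all genes tested, called ones included, it lay within 1.5-fold for 52.4% and within 2-fold for 82.0%. The share that passed rose with the level, from 28.6% of genes with a mean of 1 to 5 CPM to 45.7% of those with at least 100 CPM. The number of calls depended on which library was left out. Without Mpc1-KO library 1, 2 or 3 the count fell to 2501, 2441 and 2368 genes, whereas without UK5099 library 1 it was 6127, of which 3206 were higher in Mpc1-KO. Of the 4445 calls, 53.2% to 56.2% were still called when an Mpc1-KO library was left out, and none of these changed sign.

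**Figure D1:**
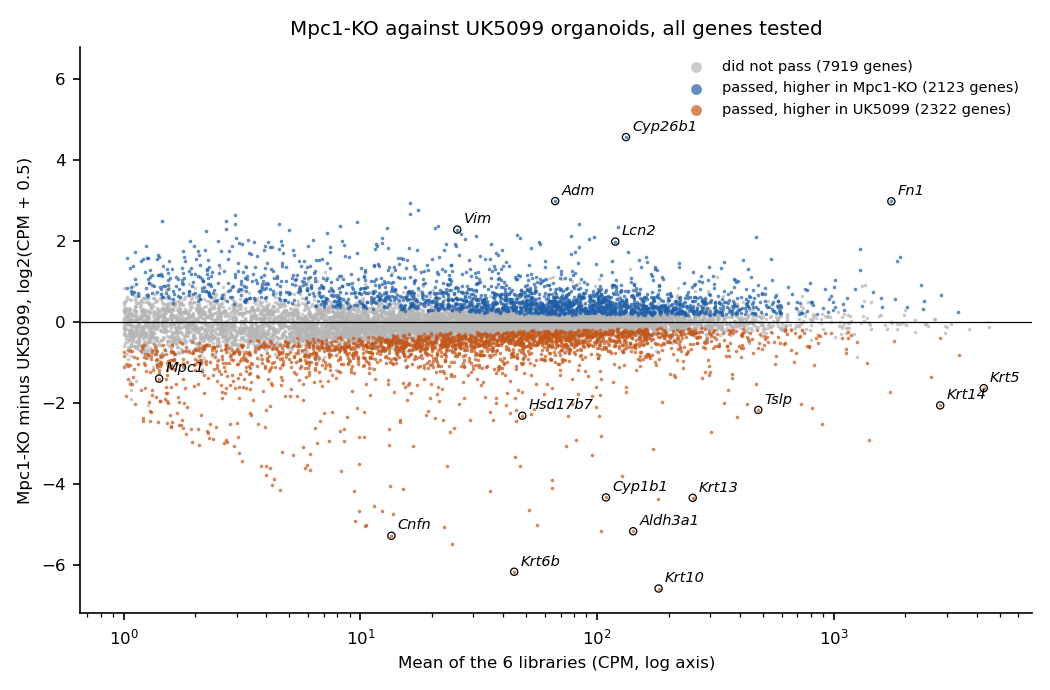
Difference between Mpc1-KO and UK5099 organoids (vertical axis, log2 scale, positive when higher in Mpc1-KO) against the mean level over the 6 libraries (horizontal axis, CPM on a log axis), with 1 dot per gene for 12364 genes. The cloud reaches further down than up, since 147 of the 185 genes past 4-fold were higher with UK5099 (orange), and the genes ringed in black are described in the text.

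Among the widest gaps were genes of stratified squamous epithelium, the programme by which skin and oral mucosa build a cornified surface, and they were high in the drug libraries. Krt10, a keratin of the suprabasal epidermis, reached 167, 562 and 352 CPM with UK5099 against 3.13, 2.18 and 3.35 CPM in Mpc1-KO, a difference of -6.59 ± 0.39 (adjusted p = 5.6e-05). Krt6b, a keratin of stressed and wounded epidermis, stood at 39.5, 162 and 63.9 CPM with UK5099 and 0.348, 0.533 and 0.781 CPM in Mpc1-KO (-6.17, adjusted p = 1.3e-04). Mpc1-KO levels of both keratins lay close to vehicle libraries (2.85, 1.72 and 2.72 CPM for Krt10 and 0.861, 0.511 and 0.669 CPM for Krt6b), and no Mpc1-KO library came near the lowest UK5099 library. Krt13, the keratin of stratified mucosa, had 361, 636 and 452 CPM with UK5099 and 26.7, 16.4 and 26.5 CPM in Mpc1-KO (-4.34, adjusted p = 4.3e-05). Krt16, the partner of the wound keratin Krt6a, had 296, 486 and 259 and 16.9, 14.4 and 16 CPM (-4.37, adjusted p = 2.7e-05). In Krt13 the Mpc1-KO libraries lay a little above vehicle (13, 8.1 and 13.6 CPM), and in Krt16 a little below it (24.2, 18.8 and 26.1 CPM).

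Of 36 squamous and cornified genes listed, 30 reached the level for testing. Of these, 29 were higher with UK5099 and none in Mpc1-KO, with a median difference of -2.50 against -0.05 over all genes tested. That level was a mean over both groups, so some members reached it only through the drug libraries, such as Rptn (mean 0.611 CPM in Mpc1-KO and 44.3 CPM with UK5099). For such members the filter fixed the direction, and the count is a description of the list. The list spanned early and late steps. Ivl, which codes for the envelope scaffold involucrin, differed by -1.07 (234, 229 and 255 CPM with UK5099 and 118, 108 and 116 CPM in Mpc1-KO, adjusted p = 6.9e-05). Lor, which codes for loricrin of the mature envelope, differed by -0.67 at a low level (4.73, 5.1 and 6.18 and 3.31, 2.98 and 3.17 CPM, adjusted p = 0.012). The Lor call was lost without Mpc1-KO library 2 (0.06) or 3 (0.053). The protease inhibitor gene Csta1 differed by -3.55 (adjusted p = 1.1e-05) and Rptn, which codes for the envelope protein repetin, by -5.06 (adjusted p = 6.7e-04). The sole member tested that did not pass was Sprr1a (difference -0.87). Within the drug group the list was uneven, and its median lay 1.70, 2.95 and 2.86 log2 units above the Mpc1-KO mean in UK5099 libraries 1, 2 and 3. Without library 1, where the list median was lowest, 30 of 30 were higher with UK5099 and the median was -2.84. These are bulk libraries, so fewer cells of a squamous kind and less of these transcripts per cell cannot be told apart.

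Of the genes that passed with no read in any Mpc1-KO library, the 4 with the highest mean level are given, leaving out predicted genes and pseudogenes. They were picked by that rule and reached the level for testing through the drug libraries alone, so their direction is not a separate result. Cnfn, which codes for cornifelin of the cornified envelope, had 4.77, 48.2 and 28.1 CPM with UK5099 and 0 reads in each Mpc1-KO library. Against 3 reads over the Mpc1-KO libraries together, taken as the floor, it was at least 658-fold higher with UK5099, or 399-fold without Mpc1-KO library 1 and 400.3-fold without UK5099 library 2. The calmodulin-like gene Calm4 (4.73, 14.3 and 8.31 CPM with UK5099), Plbd1 (3.93, 12.9 and 8.49 CPM), a phospholipase-like gene, and Endou (0.842, 11.7 and 5.88 CPM), which codes for an endoribonuclease, were also without reads in Mpc1-KO, and were at least 222-, 205- and 149-fold higher with UK5099. Without Mpc1-KO library 1 these bounds were 135, 124 and 90.5, and that of Endou was 81.8 without UK5099 library 2. Vehicle libraries held at most 0.0836 CPM of any of these 4 genes. The same side held Ly6g6c, a gene of the Ly6 family of surface proteins (-5.17, 82.4, 294 and 234 CPM against 6.23, 2.67 and 5.29 CPM), and Mt4, the metallothionein of squamous epithelium (-5.04, 13.1, 27.8 and 21.5 against 0, 0.311 and 0.0919 CPM), with adjusted p of 3.2e-04 and 5.6e-05. No gene that passed had 0 reads in all 3 UK5099 libraries.

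Adhesion and surface genes of stratified epithelium took the side of the squamous list. Of 12 desmosome genes tested, 8 were higher with UK5099 and 2 in Mpc1-KO (median -0.75). Dsg3, the desmoglein of basal and lower layers, had 607, 764 and 694 CPM with UK5099 and 178, 164 and 162 CPM in Mpc1-KO, a difference of -2.03 ± 0.09 (adjusted p = 2.3e-05). Its partner Dsc3 differed by -1.74 (adjusted p = 2.4e-05). The 2 that were higher in Mpc1-KO were Dsg2 (0.30) and Pkp2 (1.04), the desmoglein and plakophilin of simple epithelia and heart, which were named after their values were seen. Most urothelial genes took the same side, with 4 of 6 tested higher with UK5099 and none in Mpc1-KO (median -0.97). The uroplakin gene Upk3a ran the other way (0.85) without passing. Without UK5099 library 1 the list had 5 higher with UK5099 and 1 in Mpc1-KO. Krt20, a keratin of umbrella cells of the bladder, had 71.8, 258 and 195 CPM with UK5099 and 17.8, 13.2 and 15.2 CPM in Mpc1-KO (-3.28, adjusted p = 0.001). The summed level of the 8 urothelial genes was 226 to 446 CPM with UK5099, 106 to 125 CPM in Mpc1-KO and 96.9 to 104 CPM in vehicle. The uroplakin gene Upk2 reached at most 0.762 CPM while Upk3b was listed at 0 in all 9 libraries, and the part of such cells in the result was not tested. Of 12 S100 genes, 5 were higher with UK5099 and 2 in Mpc1-KO (median -0.35), among them S100a9, a subunit of the antimicrobial protein calprotectin (10.8, 24 and 12.7 against 0.801, 0.578 and 0.735 CPM, -3.68, adjusted p = 1.5e-04). Of 9 clade B serpin genes, protease inhibitors of epithelia, 5 were higher with UK5099 and 1 in Mpc1-KO (median -0.32), or 3 and 1 without Mpc1-KO library 1 or 2 and 7 and 2 without UK5099 library 1.

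**Figure D2:**
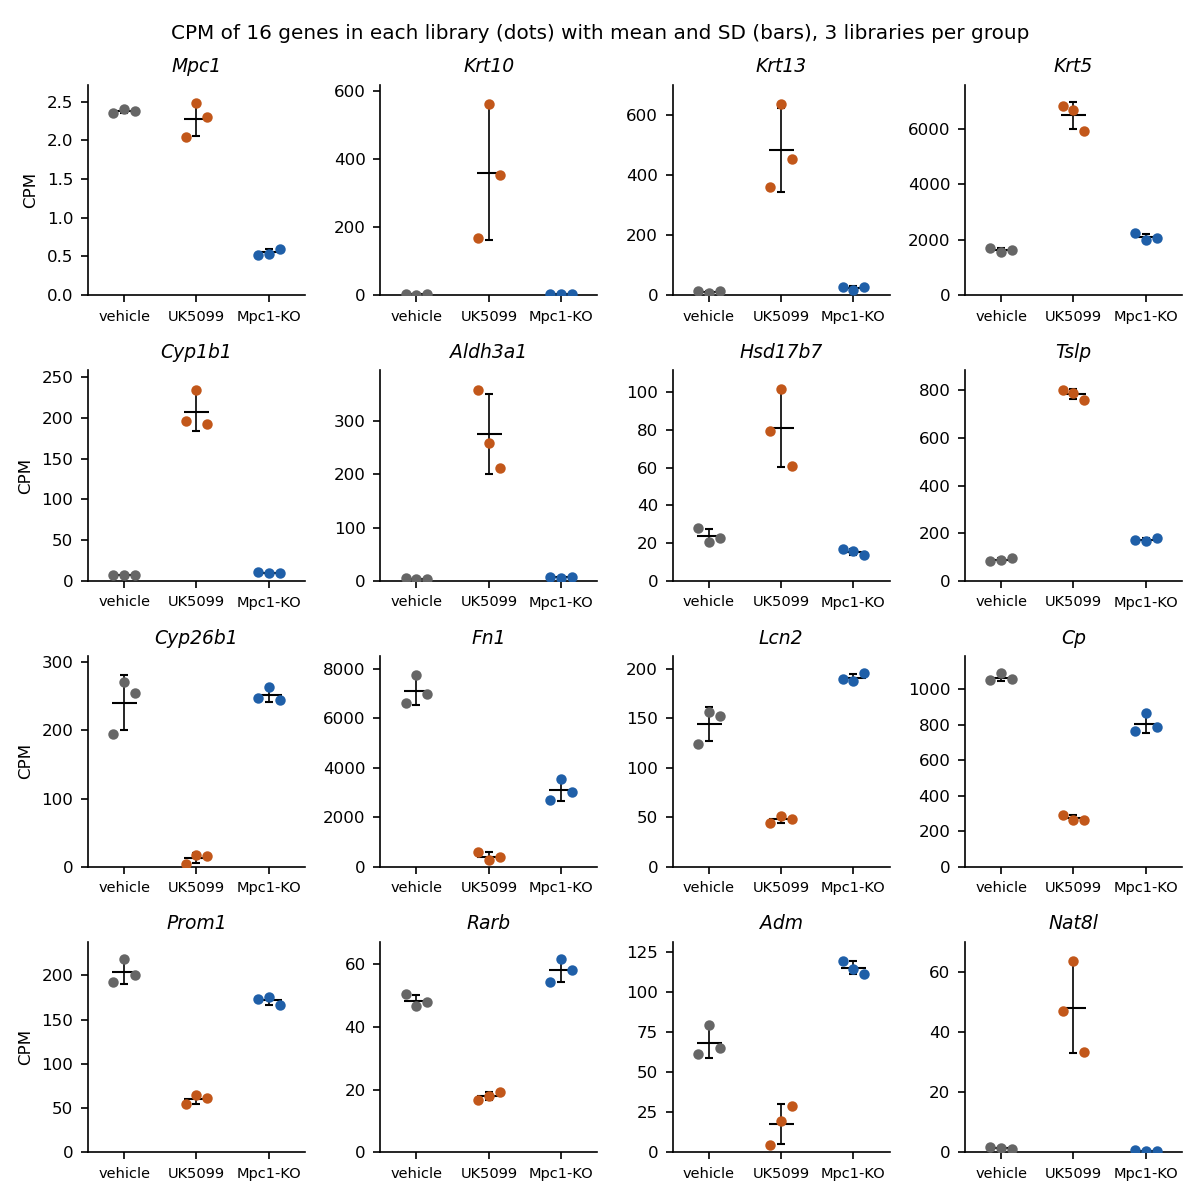
CPM of 16 genes (vertical axes, linear and starting at 0) in the vehicle, UK5099 and Mpc1-KO libraries, with 1 dot per library and bars for the mean and SD of 3 libraries. Mpc1 is low in the Mpc1-KO libraries alone, Krt10, Krt13, Cyp1b1 and Aldh3a1 are high in the UK5099 libraries alone, and Adm has vehicle between the other groups.

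Basal keratins separated the groups as well. Krt14 had 4611, 5109 and 3885 CPM with UK5099 and 1126, 1072 and 1045 CPM in Mpc1-KO, a difference of -2.06 ± 0.11 (adjusted p = 3.6e-05). Krt5, its partner, had 6833, 6689.6 and 5939.7 and 2233, 1986 and 2046 CPM (-1.63, adjusted p = 4.5e-05). Trp63, which codes for p63, had 323, 368 and 328 and 225, 219 and 217 CPM (-0.62, adjusted p = 5.5e-04). All 3 genes were thus higher in each drug library than in any Mpc1-KO library, with the gap widest for the keratins. The basal genes as a list were mixed, with 9 of 19 tested higher with UK5099 and 4 in Mpc1-KO (median -0.25), the latter falling to 2 without Mpc1-KO library 2 or 3. The members higher in Mpc1-KO were the integrin genes Itga3 and Itgb1 and the laminin genes Lama3 and Lamb3, which build the contact with the basement membrane. In a published signature of human prostate cells with high CD49f (basal), 17 mouse counterparts were tested, with 8 higher with UK5099 and 1 in Mpc1-KO (median -0.46), among them Bcl11b, a zinc finger transcription factor (32.7, 36.5 and 29.4 against 9.92, 9.02 and 8.82 CPM, -1.77, adjusted p = 6.9e-05).

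Luminal genes leaned to the side of the deletion, though less widely. Prom1, a membrane protein of luminal progenitors, had 173, 176 and 166 CPM in Mpc1-KO and 54.2, 65.2 and 61.4 CPM with UK5099, a difference of 1.51 ± 0.08 (adjusted p = 3.7e-05). Krt18 was higher in Mpc1-KO by 0.61 (1373, 1398 and 1340.2 against 959, 830.0 and 915 CPM, adjusted p = 8.8e-04). Krt8, its partner keratin, had 664, 676 and 619.7 and 625, 499 and 453 CPM, which overlapped, and did not pass (0.33, adjusted p = 0.06), but it passed without UK5099 library 1 (0.46, adjusted p = 2.9e-04) and after rescaling of the libraries by TMM (0.37, adjusted p = 0.019). Hoxb13, a homeobox gene of the prostate, differed by 0.29 (36.4, 36.9 and 34.3 against 27.8, 30.9 and 29.1 CPM, adjusted p = 0.026), a call lost without any 1 Mpc1-KO library (adjusted p of 0.074 to 0.12). Of 29 luminal genes tested 11 were higher in Mpc1-KO and 3 with UK5099 (median 0.30), or 7 and 3 without Mpc1-KO library 1 or 3 and 15 and 5 without UK5099 library 1. Of 32 mouse counterparts of the human low CD49f (luminal) signature 16 were higher in Mpc1-KO and 3 with UK5099 (median 0.56), or 18 and 6 without UK5099 library 1. Cp, the gene of the copper-binding plasma protein ceruloplasmin, had the smallest p in both lists (763, 866 and 789 against 294, 266 and 264 CPM, 1.55, adjusted p = 2.7e-05). Both lists also held Cldn3, which codes for a claudin of tight junctions (1.13, adjusted p = 1.3e-04). Of 16 tight junction genes 5 were higher in Mpc1-KO and 3 with UK5099 (median 0.25), or 2 and 1 without any 1 Mpc1-KO library. Of the 66 counterparts listed for that signature, these 32 could be tested.

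Secreted proteins of mucosal defence parted into 2 sides. All 11 genes tested of the 24 listed passed, 9 of them higher in Mpc1-KO and 2 with UK5099 (median 1.27). Lcn2, which codes for the iron-siderophore trap lipocalin 2, had 189.6, 187 and 195 CPM in Mpc1-KO and 44.3, 51 and 47.8 CPM with UK5099, a difference of 1.99 ± 0.07 (adjusted p = 1.1e-05). Mmp7, the matrix protease that activates defensins in the mouse intestine, had 605, 622 and 593 and 243, 322 and 287 CPM (1.10, adjusted p = 3.1e-04). Ltf, which codes for the iron-binding protein lactoferrin, had 92.5, 81.2 and 91.4 and 45, 50.9 and 56.9 CPM (0.79, adjusted p = 0.001). The drug libraries lay below vehicle in Lcn2 (vehicle at 124, 156 and 152 CPM) and Mmp7 (677, 739 and 739 CPM). In Ltf they lay above vehicle (42, 38.6 and 41.1 CPM), though below Mpc1-KO. The Mpc1-KO libraries lay above vehicle in Lcn2 and Ltf and below it in Mmp7. The 2 on the other side were Defb1, a beta-defensin gene, and Slpi, a leukocyte protease inhibitor gene, which had 26.6, 61.1 and 39.2 CPM with UK5099 and 5.15, 5.78 and 6.11 CPM in Mpc1-KO (-2.71, adjusted p = 3.9e-04).

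Genes of foreign compound metabolism formed another wide contrast. The aryl hydrocarbon receptor (Ahr) is a transcription factor that binds planar aromatic ligands and turns on cytochrome P450 and conjugating enzymes. Of 8 genes tested in its list, 6 were higher with UK5099 and 1, Ahr itself, in Mpc1-KO (median -1.66). Cyp1b1, a P450 target, had 196, 235 and 192 CPM with UK5099 and 10.5, 9.69 and 9.24 CPM in Mpc1-KO, a difference of -4.33 ± 0.10 (adjusted p = 1.6e-06). Cyp1a1, the classic target, had 3.05, 4 and 2.18 CPM with UK5099 and 0.0696, 0.0889 and 0.0919 CPM in Mpc1-KO (-2.58, adjusted p = 2.5e-04), where the latter amount to 6 reads in all against 217. Vehicle libraries had 0 reads of Cyp1a1 and 6.66, 7.19 and 6.86 CPM of Cyp1b1. In these genes the Mpc1-KO libraries thus lay near vehicle and the drug libraries apart from both. Tiparp, a target that feeds back on the receptor, had 142, 233 and 243 CPM with UK5099 and 119, 108 and 110.4 CPM in Mpc1-KO (-0.83, adjusted p = 0.012). Ahr transcript itself ran the other way, at 586, 566 and 568 CPM in Mpc1-KO and 293, 319.6 and 393 CPM with UK5099 (0.78, adjusted p = 0.0013). Vehicle libraries held 379, 394 and 384.5 CPM of Ahr and 73.2, 85.7 and 84.4 CPM of Tiparp. Mpc1-KO thus lay above vehicle in both genes. Unlike the squamous list, this one was even over the drug libraries, whose list medians lay 1.79, 1.67 and 1.61 above the Mpc1-KO mean. Those of the vehicle libraries stood at -0.56, -0.41 and -0.53 from that mean.

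The receptor binds DNA at a short core, GCGTG. The promoters of Cyp1a1, Cyp1b1 and Tiparp are shown because these were the tested targets in which a search found this core. A search of both strands (GCGTG or its complement CACGC) in the 250 bases before the start in the RefSeq promoter table of GRCm38.p6 found it in 4 of 7 targets with an entry (of 8 looked up), and in 28.2% of all 32851 windows. A stretch of 60 bases around the match nearest the start is given 5′ to 3′ on the strand of the gene, with the core in capitals. The stretches lie at chr9:57697532-57697591 on the plus strand for Cyp1a1, chr17:79715105-79715164 on the minus strand for Cyp1b1 and chr3:65528250-65528309 on the plus strand for Tiparp.
Cyp1a1: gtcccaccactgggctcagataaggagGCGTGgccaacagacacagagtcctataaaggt
Cyp1b1: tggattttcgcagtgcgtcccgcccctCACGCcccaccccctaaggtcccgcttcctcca
Tiparp: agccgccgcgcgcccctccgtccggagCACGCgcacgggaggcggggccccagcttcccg
The core lies 54 bases before the start in Cyp1a1, 76 in Cyp1b1 and 170 in Tiparp. A match describes these letters and is not a measured site, and Nqo1 and Ugt1a6a, which were also higher with UK5099, had none in the window. The P450 gene Cyp1a2 had none either, and the remaining target with a match was Ahrr. Neither Cyp1a2 nor Ahrr reached the level for testing. The target without an entry was Aldh3a1, which was higher with UK5099 and could not be searched.

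Detoxifying genes under NRF2, the factor that answers oxidants and electrophiles, were split. Of 33 genes tested for NRF2 targets, glutathione and NADPH supply, 15 were higher with UK5099 and 4 in Mpc1-KO (median -0.21), or 15 and 8 without UK5099 library 1. The aldehyde dehydrogenase gene Aldh3a1, which belongs to this list and to that of the aryl hydrocarbon receptor, had 359, 259 and 212 CPM with UK5099 and 7.94, 6.22 and 6.99 CPM in Mpc1-KO, a difference of -5.17 ± 0.18 (adjusted p = 1.1e-05). Nqo1, the quinone reductase gene in both lists, had 141, 179 and 163 and 37.7, 36.3 and 37.3 CPM (-2.10, adjusted p = 2.3e-05). The glutathione transferase gene Gsta4 had 1208, 1419.6 and 1328 and 318, 282 and 303 CPM (-2.13, adjusted p = 1.4e-05). For Nqo1 the Mpc1-KO libraries also lay above the vehicle libraries (17, 10.8 and 12.9 CPM). Those higher in Mpc1-KO were Osgin1, Gstm1, Mgst1 and Ftl1, at differences of 0.88, 0.74, 0.74 and 0.47.

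Genes of cholesterol synthesis were higher with the drug almost without exception. Of 26 tested, 22 were higher with UK5099 and none in Mpc1-KO (median -0.71), and those that did not pass included Stard4, Srebf2 and Ggps1. Hsd17b7, a sterol ketoreductase gene, had 79.7, 102 and 61.1 CPM with UK5099 and 17, 15.9 and 13.9 CPM in Mpc1-KO, a difference of -2.31 ± 0.18 (adjusted p = 1.5e-04). Hmgcs1, which makes the precursor of mevalonate, had 772, 849.7 and 655 and 376, 377 and 357 CPM (-1.03, adjusted p = 3.4e-04). Fdft1, which codes for squalene synthase, had 139, 149 and 125 and 83.3, 82.3 and 86.3 CPM (-0.71, adjusted p = 5.5e-04). In these 3 genes the Mpc1-KO libraries lay below the UK5099 libraries by a clear gap. For Hsd17b7 they also lay below vehicle (27.9, 20.6 and 22.5 CPM). For Hmgcs1 (459, 347 and 368 CPM) and Fdft1 (98.55, 78.8 and 88.7 CPM) they lay within the vehicle range. Relative to the Mpc1-KO mean the list median stood at 0.114, -0.115 and -0.059 in the vehicle libraries and at 0.593, 0.871 and 0.562 in the UK5099 libraries. Acly, which splits citrate into cytosolic acetyl-CoA for lipids and histones, differed by -0.86 (545, 578 and 451 against 299, 292 and 273 CPM, adjusted p = 6.4e-04). Fatty acid genes took both sides, with 5 of 15 synthesis genes higher with UK5099 and 4 in Mpc1-KO (median -0.23), or 8 and 4 without UK5099 library 1, and 5 and 3 of 23 oxidation genes (median -0.16), the latter falling to 2 and 2 without any 1 Mpc1-KO library. The shares that passed were 60.0% for synthesis and 34.8% for oxidation, against 36.0% over all genes. The desaturase gene Fads1 was higher in Mpc1-KO (0.48, adjusted p = 6.6e-04) and the elongase gene Elovl1 with UK5099 (-0.74, adjusted p = 7.0e-04).

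In the pathways next to the carrier the shares that passed lay near or below the 36.0% over all genes, at 21.4% for pyruvate entry, 38.9% for the TCA cycle and 36.6% for the respiratory chain. Of 14 genes of pyruvate entry into mitochondria, 3 were higher with UK5099 and none in Mpc1-KO (median -0.16), and 1 of the 3 was Mpc1 itself, which alone passed without UK5099 library 2 or Mpc1-KO library 2 or 3. Pcx, which codes for pyruvate carboxylase and so for the other route of pyruvate into the TCA cycle, had 49.3, 90.1 and 95.2 CPM with UK5099 and 43.7, 36.2 and 39.2 CPM in Mpc1-KO (-0.91, adjusted p = 0.018, lost without UK5099 library 2 or Mpc1-KO library 2 or 3 at adjusted p of 0.064 to 0.07). Pdhx, a structural subunit of pyruvate dehydrogenase, differed by -0.74 (adjusted p = 0.027, lost without UK5099 library 2 or any 1 Mpc1-KO library at 0.059 to 0.1). Genes of the TCA cycle had 6 of 18 higher with UK5099 and 1 in Mpc1-KO (median -0.21), or 2 and 1 without Mpc1-KO library 3. Citrate synthase (Cs) and the succinate dehydrogenase subunit Sdhb were higher with UK5099 (-0.34 and -0.46, adjusted p = 0.0047 and 0.0034), while Idh2, the mitochondrial NADP-linked isocitrate dehydrogenase gene, was higher in Mpc1-KO (114, 114 and 109.8 against 83.4, 71.5 and 76.3 CPM, 0.55, adjusted p = 0.0013). Nuclear genes of the respiratory chain and ATP synthase had 25 of 71 higher with UK5099 and 1 in Mpc1-KO (median -0.20), among them Atp5g3 (-0.44, adjusted p = 0.0021), but 6 and 0 without Mpc1-KO library 1, 2 or 3. Of 7 mitochondrially encoded genes 1, the cytochrome b gene mt-Cytb, passed (-0.77, adjusted p = 0.04), and the call was lost without any 1 Mpc1-KO library (adjusted p of 0.091 to 0.12), while 2 passed without any 1 UK5099 library.

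Some amino acid genes that could feed the cycle without the carrier differed, in both directions. Gpt2, the mitochondrial alanine transaminase gene, had 78.5, 78.2 and 79.2 CPM with UK5099 and 38.4, 40.8 and 42.9 CPM in Mpc1-KO, a difference of -0.94 ± 0.07 (adjusted p = 1.2e-04), with Mpc1-KO at the level of vehicle (41.5, 40.1 and 43.1 CPM). Slc7a5, the large neutral amino acid transporter gene, ran the other way at 224, 226 and 216 CPM in Mpc1-KO and 103, 67.3 and 65.1 CPM with UK5099 (1.53, adjusted p = 5.1e-04), as did the glutamine transporter gene Slc38a1 (1.26, adjusted p = 6.6e-04). In all, 3 of 16 genes were higher in Mpc1-KO and 3 with UK5099 (median -0.06), or 5 and 5 without UK5099 library 1. The share that passed was 37.5%, near the 36.0% over all genes. In the ATF4 and serine synthesis list 3 of 21 were higher in Mpc1-KO and 4 with UK5099 (median 0.21), and the share that passed was 33.3%, also near that over all genes. Atf4, the stress response factor, was higher in Mpc1-KO (0.54, adjusted p = 0.0017) and Psat1, a serine synthesis gene, with UK5099 (-0.64, adjusted p = 0.0038). Without UK5099 library 1 this list had 10 and 7.

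Some genes of hypoxia and glycolysis were higher in Mpc1-KO, and their values turned on UK5099 library 1. Of 20 hypoxia genes 7 were higher in Mpc1-KO and 2 with UK5099 (median 0.90), and of 21 genes of glycolysis and lactate transport 5 and 0 (median 0.37), which is 45.0% and 23.8% passed against 36.0% over all genes. Adm, which codes for the vasodilator peptide adrenomedullin, had 119.5, 114 and 112 CPM in Mpc1-KO and 4.65, 19.6 and 29.1 CPM with UK5099, a difference of 2.99 ± 0.55 (adjusted p = 0.0053). Bnip3, a mitophagy gene under hypoxia-inducible factor, had 129, 131 and 128 CPM in Mpc1-KO and 22.5, 109.8 and 92.6 CPM with UK5099 (1.07, adjusted p = 0.14). Pdk1, the kinase that switches off pyruvate dehydrogenase, had 291, 296 and 284 and 132, 328 and 253 CPM (0.38, adjusted p = 0.32). In Bnip3 and Pdk1 library 1 of the drug group was low and the other 2 lay nearer Mpc1-KO. Without UK5099 library 1 Bnip3 passed at a smaller difference of 0.36 (limma adjusted p = 0.0028). Relative to the Mpc1-KO mean the hypoxia list stood at -1.81, -0.32 and -0.41 in UK5099 libraries 1, 2 and 3 and the glycolysis list at -0.95, -0.11 and -0.22. The vehicle libraries stood at -0.40, -0.23 and -0.25 for hypoxia and at -0.23, -0.12 and -0.15 for glycolysis. UK5099 libraries 2 and 3 thus lay near vehicle in both list medians, and Mpc1-KO above it. Without library 1 the medians fell to 0.36 and 0.15 while more genes passed, 15 higher in Mpc1-KO and 3 with UK5099 for hypoxia and 10 and 0 for glycolysis. Without Mpc1-KO library 1, 2 or 3 the glycolysis list had 2 and 0, and the hypoxia list 4 and 2, 3 and 2, and 3 and 2.

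**Figure D3:**
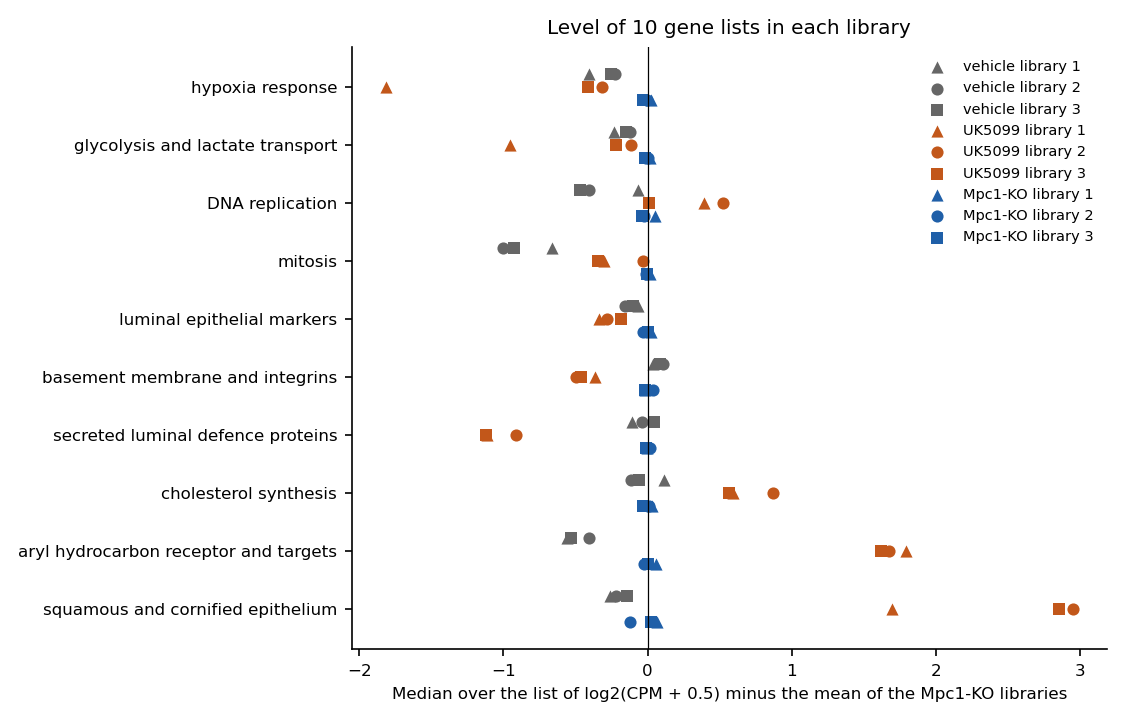
Level of 10 gene lists in each of the 9 libraries, as the median over a list's genes of log2(CPM + 0.5) minus the mean of the Mpc1-KO libraries (horizontal axis), with colours for groups and symbols for library numbers. UK5099 library 1 (orange triangle) lies apart from UK5099 libraries 2 and 3 in the hypoxia list (-1.81 against -0.32 and -0.41) and in the squamous list (1.70 against 2.95 and 2.86).

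The glycolysis genes that passed were Bsg, Hk2, Slc16a1, Ldhb and Gpi1, the last 2 named after their values were seen. Bsg, which codes for basigin, the chaperone of lactate transporters, had 2708, 2672 and 2666 CPM in Mpc1-KO and 604, 1144 and 1219.8 CPM with UK5099 (1.50 ± 0.24, adjusted p = 0.0028). Hk2, the inducible hexokinase gene, had 724, 732 and 739.8 and 243, 404 and 446 CPM (1.05, adjusted p = 0.0061). Slc16a1, the lactate transporter gene, had 37.4, 34.5 and 39.8 and 26.1, 32.4 and 27.7 CPM (0.37, adjusted p = 0.028). The last call was lost without UK5099 library 3 or any 1 Mpc1-KO library (adjusted p of 0.054 to 0.12). Ldha, the lactate dehydrogenase gene, had 1229.8, 1208 and 1168 CPM in Mpc1-KO and 765, 1441 and 1173 CPM with UK5099, which overlapped (0.14, adjusted p = 0.61, 95% interval -0.33 to 0.61). The glucose transporter gene Slc2a1 had 631, 604 and 592 and 275, 507 and 536 CPM (0.53, adjusted p = 0.1), and passed without UK5099 library 1 at a difference of 0.22 (adjusted p = 0.0058). Vegfa, the blood vessel growth factor gene in the hypoxia list, had 1368, 1335 and 1319 and 391, 860.0 and 802 CPM (1.05, adjusted p = 0.019, lost without any 1 Mpc1-KO library at 0.06 to 0.061). Car12, a carbonic anhydrase gene, and Hif1a, which codes for the oxygen-regulated factor itself, ran against the list and were higher with UK5099 (-1.86 and -0.63, adjusted p = 0.0022 and 0.0043).

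Genes of the matrix and its receptors were higher in Mpc1-KO. Of 29 genes of basement membrane and integrins, 17 were higher in Mpc1-KO and 2 with UK5099 (median 0.49). Itga2, a collagen receptor subunit gene, had 1483, 1606 and 1606 CPM in Mpc1-KO and 882, 894 and 882 CPM with UK5099, a difference of 0.82 ± 0.06 (adjusted p = 1.7e-04). The laminin gene Lamc1 had 819, 819.8 and 843 and 424, 434 and 495 CPM (0.88, adjusted p = 2.2e-04). The collagen gene Col4a1 had 222, 236 and 211 and 132, 145 and 133 CPM (0.71, adjusted p = 3.8e-04). The 2 members higher with UK5099 were Itga6 and Col17a1, parts of the hemidesmosome. Fn1, which codes for fibronectin, was among the largest differences at 2685, 3536 and 3027 CPM in Mpc1-KO and 587, 254 and 386 CPM with UK5099 (2.99 ± 0.27, adjusted p = 3.1e-04). Vim, which codes for the mesenchymal filament vimentin, had 37.1, 53.1 and 38.2 and 9.18, 10.3 and 5.94 CPM (2.29, adjusted p = 3.5e-04). For both genes vehicle libraries were higher than either (6618, 7734 and 6998 CPM for Fn1 and 129, 188 and 169.9 CPM for Vim), so both groups lay below vehicle and the drug group furthest. Of 25 mesenchymal markers 8 could be tested, 3 of them higher in Mpc1-KO and 1 with UK5099 (median 0.34). Their summed level was 2928 to 3801 CPM in Mpc1-KO and 423 to 785 CPM with UK5099, most of it Fn1, and the part of such cells in the result was not tested. Among members too low to test, Pdgfra of fibroblasts reached 1.16 CPM in Mpc1-KO and 1.00 CPM with UK5099, Acta2 of smooth muscle 1.33 and 0.962 CPM and the matrix gene Postn 1.78 and 0.424 CPM, while Col1a2 and Thy1 were listed at 0 in all 9 libraries.

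Retinoic acid genes held the largest difference in favour of the deletion. Cyp26b1, the enzyme that breaks down retinoic acid, had 248, 264 and 245 CPM in Mpc1-KO and 3.69, 17.8 and 15.1 CPM with UK5099, a difference of 4.57 ± 0.49 (adjusted p = 5.2e-04), and vehicle libraries stood with Mpc1-KO (195, 271 and 255 CPM). Rarb, a retinoic acid receptor gene, had 54.4, 61.6 and 58.3 and 16.7, 17.9 and 19.3 CPM (1.67, adjusted p = 3.9e-05). The retinaldehyde reductase gene Dhrs3 had 342, 337 and 343 and 164, 165 and 203 CPM (0.94, adjusted p = 3.4e-04). On the other side Rxra, the partner receptor gene, was higher with UK5099 (139, 132 and 121 against 72.2, 68.7 and 71.1 CPM, -0.88, adjusted p = 1.8e-04), and of 13 genes tested 6 were higher in Mpc1-KO and 5 with UK5099 (median 0.39). Other large differences towards Mpc1-KO were Cytip, a regulator of cell adhesion (2.93, 27, 30.9 and 28.8 against 3.49, 2.63 and 4.06 CPM), Hvcn1, a proton channel gene (2.77), Nos2, the inducible nitric oxide synthase gene (2.49), Plekhs1 (2.43) and Pgf, the placental growth factor gene (2.38). Their adjusted p were 3.9e-05, 1.9e-04, 0.0017, 1.7e-04 and 0.016, and the last was lost without any 1 Mpc1-KO library (0.051 to 0.057).

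Immune genes of the epithelium were called in both directions. Of 16 genes of MHC class I and antigen presentation 10 were higher in Mpc1-KO and none with UK5099 (median 0.42), or 6 without Mpc1-KO library 3. B2m, the light chain of class I molecules, had 300.3, 284 and 334 CPM in Mpc1-KO and 144, 146 and 183 CPM with UK5099, a difference of 0.96 ± 0.11 (adjusted p = 6.0e-04). The heavy chain gene H2-K1 had 502, 488 and 490.3 and 299, 325 and 333 CPM (0.63, adjusted p = 4.0e-04). Class I heavy chain genes are near-identical copies, so their reads may be shared among them. Interferon response genes had 8 of 37 higher in Mpc1-KO and 2 with UK5099 (median 0.25, 27.0% passed), led by Lgals3bp, a secreted lectin-binding glycoprotein gene (1.17, adjusted p = 0.0011). These counts became 6 and 0 without Mpc1-KO library 1, 5 and 0 without library 2, 4 and 2 without library 3, 5 and 2 without UK5099 library 2 and 15 and 2 without UK5099 library 3. The alarm cytokine genes Tslp and Il33 of barrier epithelium were higher with the drug. Tslp, which codes for thymic stromal lymphopoietin, had 803, 788 and 760.2 CPM with UK5099 and 172, 168 and 181 CPM in Mpc1-KO (-2.17 ± 0.06, adjusted p = 3.0e-06). Il33 had 752, 639.8 and 698 and 245, 231 and 243 CPM (-1.53, adjusted p = 2.7e-05). For Tslp the Mpc1-KO libraries also lay above vehicle (84.8, 86.7 and 96.4 CPM), at a distance smaller than that of the drug libraries. The list of cytokines, chemokines and NF-kB feedback had 7 of 27 higher in each group (median -0.20), or 10 in Mpc1-KO and 14 with UK5099 without UK5099 library 1 and 4 and 6 without Mpc1-KO library 1 or 2. Of 18 leukocyte markers only Cd14 and Cd68 could be tested, both higher in Mpc1-KO (0.86 and 1.30, adjusted p = 0.0018 and 0.011), with a summed level for the list of 102 to 104 CPM in Mpc1-KO and 47.1 to 55.2 CPM with UK5099. Among members too low to test, the antigen presentation genes Cd74 and H2-Ab1 had reads in all 9 libraries and reached 1.42 and 0.735 CPM in Mpc1-KO and 0.642 and 0.788 CPM with UK5099. Another 7 members, including Cd3d and Adgre1, were listed at 0 in all 9 libraries, and the part of such cells in the result was not tested. Of 10 neuroendocrine markers only Calca and Ncam1 could be tested, both higher in Mpc1-KO (median 1.27), with a summed level of 27.2 to 29.1 CPM in Mpc1-KO and 9.29 to 14.3 CPM with UK5099, while Scg2 reached 0.578 and 0.849 CPM and Insm1 was listed at 0 in all 9 libraries. Of 10 endothelial markers 2 could be tested and none passed (1 in each direction without UK5099 library 1, and 1 in Mpc1-KO without UK5099 library 3). Their summed level was 73.6 to 76.3 CPM in Mpc1-KO and 39.2 to 68.9 CPM with UK5099, and Vwf reached at most 0.849 CPM. Of 8 seminal vesicle markers none could be tested, with a summed level of at most 0.182 CPM.

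**Figure D4:**
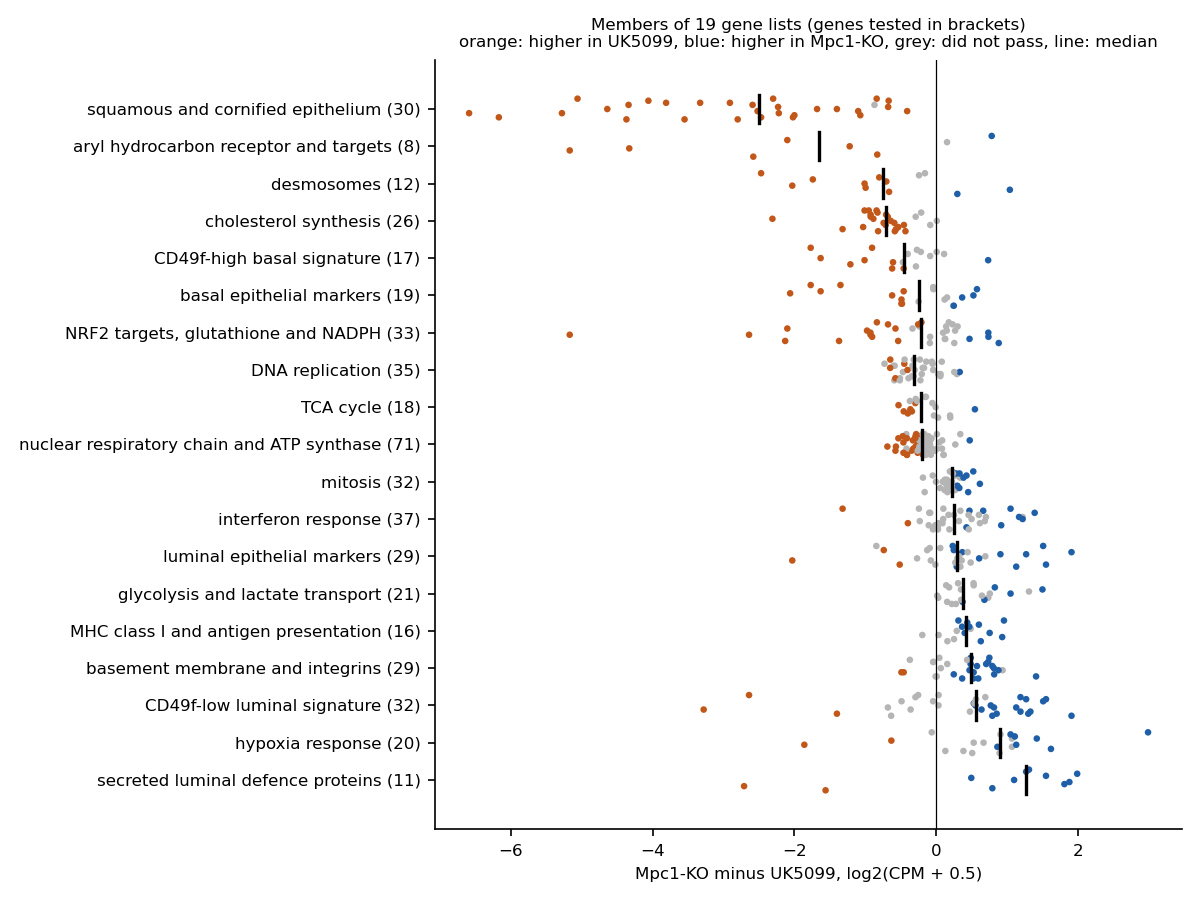
Members of 19 gene lists by their difference between Mpc1-KO and UK5099 organoids (horizontal axis, log2 scale), with 1 dot per gene tested, black lines for the median of a list and the number of genes tested in brackets. The squamous list lies furthest to the drug side with a median of -2.50 and the secreted defence list furthest to the deletion side with 1.27.

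Few cell cycle genes were called. Of 32 genes of mitosis 10 were higher in Mpc1-KO and none with UK5099 (median 0.22), and of 35 genes of DNA replication 1 was higher in Mpc1-KO and 5 with UK5099 (median -0.32), so that 31.2% and 17.1% passed against 36.0% over all genes. Ect2, which starts cytokinesis, had 64.3, 62.4 and 64.2 CPM in Mpc1-KO and 39.8, 45.4 and 39 CPM with UK5099, a difference of 0.62 ± 0.08 (adjusted p = 0.0011). The thymidine kinase gene Tk1 had 12.6, 15.9 and 13 CPM with UK5099 and 8.84, 8.71 and 8.27 CPM in Mpc1-KO (-0.65, adjusted p = 0.0066). These counts rested on single libraries. Mitosis had 2 and 0 without any 1 Mpc1-KO library, 6 and 0 without UK5099 library 3 and 17 and 0 without UK5099 library 2, and replication had 0 and 1 without any 1 Mpc1-KO library, 2 and 1 without UK5099 library 2 and 1 and 20 without UK5099 library 3 (1 and 8 without library 1). The sign of each median was the same in all of these.

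Signalling genes were called in both directions. Of 15 Notch pathway genes 4 were higher with UK5099 and 3 in Mpc1-KO (median -0.10), or 7 and 3 without UK5099 library 1, with the receptor gene Notch1 at 504, 409 and 477 CPM with UK5099 and 260.4, 248 and 262 CPM in Mpc1-KO (-0.84, adjusted p = 4.1e-04) and the feedback gene Nrarp at -1.47 (adjusted p = 1.0e-04). Of 13 genes of EGF family ligands and receptors 6 and 2 (median -0.35), among them the ligand gene Areg (287, 323 and 289.6 against 178, 179 and 162 CPM, -0.79, adjusted p = 3.2e-04), or 4 and 0 without any 1 Mpc1-KO library. Immediate early genes had 1 of 24 higher with UK5099, Egr3 (-1.56, adjusted p = 3.9e-05), and 4 in Mpc1-KO (median -0.06), or 9 and 7 without UK5099 library 1 and 1 and 1 without any 1 Mpc1-KO library. Of 25 p53 targets 6 were higher with UK5099 and 5 in Mpc1-KO (median -0.08), or 9 and 2 without UK5099 library 2 and 6 and 2 without any 1 Mpc1-KO library, with the desmosomal gene Perp at 1454, 1998 and 2086 CPM with UK5099 and 929, 879 and 905 CPM in Mpc1-KO (-1.01, adjusted p = 0.0012). Among 21 zinc and metallothionein genes 4 were higher with UK5099 and 3 in Mpc1-KO (median 0.00), or 2 and 3 without any 1 Mpc1-KO library and 5 and 5 without UK5099 library 1, those in Mpc1-KO led by the zinc importer genes Slc39a8 (1.27, adjusted p = 7.4e-05) and Slc39a4 (1.24, adjusted p = 4.9e-04). Of 30 genes of acetyl-CoA and histone acetylation 6 were higher in each group (median -0.05), or 2 in each without any 1 Mpc1-KO library and 3 in each without UK5099 library 2. Beside the share of 36.0% that passed over all genes, these lists passed in 20.8% to 61.5% of their members.

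In some genes the vehicle libraries lay between deletion and drug, so that the groups stood on opposite sides of the same reference. On the side of Mpc1-KO these were Adm, described above, Il4i1, an amino acid oxidase gene (9.43, 10.1 and 11.7 CPM in Mpc1-KO, 5.66, 5.37 and 6.52 CPM in vehicle and 2.45, 2.02 and 2 CPM with UK5099, 2.04, adjusted p = 1.2e-04), the immune checkpoint gene Vsir (50.2, 51.2 and 46.6, 26.6, 34.7 and 31.8 and 5.33, 13.7 and 17.3 CPM, 2.13, adjusted p = 0.0038) and Fam13a (62.1, 59.3 and 58.3, 31.9, 38.6 and 38.4 and 11.9, 31.5 and 30.4 CPM, 1.39, adjusted p = 0.014, lost at 0.051 without Mpc1-KO library 1 and at 0.05 without library 3). On the side of the drug they were Nat8l, which makes N-acetylaspartate from acetyl-CoA and aspartate (46.8, 63.5 and 33.5 CPM with UK5099, 1.95, 1.35 and 1.13 CPM in vehicle and 0.766, 0.533 and 0.368 CPM in Mpc1-KO, -5.49, adjusted p = 2.3e-05), the gasdermin gene Gsdmc2 (-3.61), the actin-severing gelsolin gene Gsn (129, 200.4 and 154, 74, 83.8 and 82.7 and 47.9, 47.3 and 40.8 CPM, -1.80) and Thbs2, which codes for a thrombospondin (-2.63). The adjusted p of the last 3 were 4.5e-04, 2.2e-04 and 1.5e-04. Gsdmc2 has close paralogues, among which its reads may be shared. No test against vehicle was made, and the order of the groups in these genes is a description.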

How the data were processed

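RNA was measured by stranded mRNA sequencing with single-end reads. The authors deposited 1 table of CPM values, which per the study's methods came from read counts scaled to CPM in Partek Flow with 0.0001 added, and the submitters' processing notes name STAR 2.7.9a and GRCm39. Per the study's methods reads per gene were counted on an Ensembl GTF of that build, and how shared reads were assigned was not stated there. The constant of 0.0001 was subtracted. The CPM worth of 1 read gave depths of 16.5 to 28.7 M reads, and 99.9% of values up to 1000 reads came out whole within 0.02 reads. A nameless entry, holding up to 0.000715% of the reads, was dropped, and 24 symbols turned into dates could not be read as genes. All sample columns were mapped to a library.

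Genes whose mean over the 6 libraries reached 1 CPM were compared as log2(CPM + 0.5) with limma 3.58.1 (lmFit, eBayes with a mean-variance trend) in R 4.3.3, with Benjamini-Hochberg adjustment over all 12364 genes. Tables were made with pandas 2.3.3 and numpy 2.4.6. The fit was tested on simulated data in which both groups had the same spread, so it was not tested for the unequal spread of these groups. A count test on the recovered reads was not run. Sequencing depth sets a floor of 3 reads, taken over the Mpc1-KO libraries together, and such bounds cover counting error only. Alternatives were another pseudocount, filter or scaling, other variance models, all 9 libraries in the fit, a replicate block and leaving out each library.

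The members and gene lists were chosen with earlier results of these data known. The text names Mpc1 and Mpc2, the 8 genes with the largest difference in each direction (passed, mean of at least 5 CPM, no overlap, no predicted genes or pseudogenes), members with the smallest p in each list (up to 3), up to 4 genes in each direction with vehicle between the groups or with no reads in 1 group, and defining epithelial and mesenchymal genes. Cyp1a1, Ahr, Tiparp, Krt13, Vegfa, Bnip3, Ldha, Slc2a1, Pdk1, Slpi, Ltf, Ivl, Lor and other list members given by difference alone were named after their values were seen. Promoter sequences are from RefSeq on GRCm38.p6, matched by symbol, with coordinates of that build only.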

Additional observations from a re-analysis of the deposited data

How the results depend on the processing

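Of 2504 pairs of a named gene and an alternative, 2444 kept the direction and the side of the threshold, 49 lost a call, 9 gained one and 2 changed sign without passing, and 129 of 148 named genes kept both under every alternative run. The sign changes were Mpc2 and Ldha without UK5099 library 1, and leaving out 1 library gave differences of -0.24 to 0.040 for Mpc2 and -0.11 to 0.34 for Ldha. Leaving out 1 library gave 2368 to 6127 genes passed, 1187 to 3206 of them higher in Mpc1-KO and 1181 to 2951 higher with UK5099. The count past 2-fold was 554 with a pseudocount of 2 CPM and 529 with a mean of at least 5 CPM, where fewer genes (10170) were tested. The medians of 4 lists (immediate early genes, acetyl-CoA and histone acetylation, endothelial cells, zinc and metallothioneins) changed sign under some alternative, and the cause was not tested.

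Deviations of same-numbered UK5099 and Mpc1-KO libraries from their group means correlated at -0.12, -0.08 and 0.12 across genes. Differently numbered libraries gave -0.16 to 0.17. With 3 libraries per group such correlations cannot tell whether same-numbered libraries share an animal or culture, and the sources do not say. With the replicate block 3898 genes passed, 3758 of them also without it, Slc16a1 (adjusted p = 0.055) and Hoxb13 (0.064) lost their limma call and Krt8 (0.041) gained one. Tests of recovered reads with count models were not run. At 3 libraries per group and the spread of the UK5099 libraries, differences of low genes were not detectable at this depth unless they were large, with a median SE of 0.21 for genes of 1 to 5 CPM and 0.07 for those of at least 100 CPM.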
